A study of Mus musculus with 6 samples.

Results

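The insulin-like growth factor (IGF) genes described here are 2 ligand genes (Igf1 and Igf2), 2 receptor genes (Igf1r and Igf2r) and 6 binding protein genes (Igfbp2 to Igfbp7), 10 of the 20325 genes in the deposited table, found by their symbols. The set was proposed with the normalized values of this same contrast known, and is treated as selected on them, so their differences are given as descriptions, with the value in each library, the fold and its standard error (SE), and with no p-value. RNA came from C3H10T1/2 cells, a multipotent mesenchymal line derived from C3H mouse embryos, at passage 10 to 15. All 6 samples were parental cells; 3 control samples received a scrambled small interfering RNA (siRNA), and 3 knockdown samples received siRNAs directed at Ring1a plus Ring1b. Their products (genes Ring1 and Rnf2) supply the histone ubiquitin ligase activity of Polycomb repressive complex 1, known for silencing genes of development. The design asks for the effect of depleting both on the transcriptome. Knockdown by siRNA is partial, so some ligase may remain; the sources used here give neither dose nor time. The labels number the replicates without saying whether they were separate cultures, so p-values reflect just the scatter among these libraries, possibly technical.

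IGF1 and IGF2 are secreted hormones that promote growth and survival by activating the tyrosine kinase IGF1R. IGF2R, which also sorts lysosomal enzymes, binds IGF2 at the cell surface and carries it to degradation. Binding proteins 2 to 6 hold IGFs with high affinity and either withhold them from the receptor or carry them to it, and proteases that cut the binding proteins release the ligand; IGFBP7 binds IGFs only weakly. In mesenchymal cells, IGF1 is a growth signal for cartilage, bone and muscle, while Igf2 is an imprinted gene of fetal growth, expressed mainly from the paternal copy.

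Deposited totals were 13115793 to 19471638 per library, in the authors' normalized unit, an estimated read count divided by a size factor. Estimated depths, from the value of 1 read in each library, were 5447198 to 51801653 reads in the controls and 4580087 to 23196468 in the knockdowns. For Rnf2, control replicates 1, 2 and 3 read 815, 829 and 799, and knockdown replicates 129, 76.5 and 152 (limma adjusted p = 0.00946). For Ring1, libraries had control values of 336, 386 and 374 against knockdown values of 162, 268 and 186. All knockdowns lay below all controls, as for 23.7% of all genes tested, but Ring1 missed the threshold (limma adjusted p = 0.104). Knockdown replicate 2 stood apart. Its log2 values correlated with those of the other libraries at 0.821 to 0.867 across genes, which are not independent replicates, against 0.944 to 0.993 for all other pairs. Of its total, 20.6% came from ribosomal protein genes, compared with 5.05 to 5.79% elsewhere, and it read short transcripts higher and long ones lower than the other knockdowns (median log2 difference 0.81 in the 2728 genes with the shortest transcripts and −0.84 in the 2722 with the longest). Values for the IGF genes are therefore also given without this library. Without it Ring1 was called (log2 fold change −1.06, SE 0.10), in a fit that called 49.9% of all genes. The 12 mesenchymal markers, led by Col1a2, Col1a1 and Vim, summed to 422279 to 445218 in the controls and 362687 to 468848 in the knockdowns, and none was at 0. Of other cell types, the 4 hepatocyte markers summed to at most 2.84 with Alb and Ttr at 0 in every library, the 7 leukocyte markers to 22.6 to 25.99 and 28.4 to 51.02 (Emr1 and Cd3e at 0), the 8 epithelial markers to 17.5 to 31.6 and 18.5 to 42.5, and the 6 endothelial markers to 97.7 to 110.1 and 110.5 to 166 (Cldn5 at 0) in controls and knockdowns. The 5 neuronal markers, with Snap25 at 0, were at 265 to 363 in the controls and 500.3 to 684 in the knockdowns, and the 5 skeletal muscle markers at 17.4 to 27.0 and 35.1 to 97.8; their part in the results below was not tested.

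Control cells expressed Igf1 at a high level, Igfbp4 at a moderate level and little Igf2 or Igfbp2. After knockdown Igf1 fell, and Igf2, Igfbp2 and Igfbp4 rose, so both ligands and 2 binding proteins changed, while neither receptor passed the threshold. Across all genes with a mean of at least 10 (12085), limma on log2(value + 1), with Benjamini-Hochberg adjusted p under 0.05, called 4.98% of genes, 3.2% higher and 1.78% lower in the knockdown. Of the 10 IGF genes, 9 were tested, 3 were called higher, 1 lower and 5 not called; Igfbp6 was too low to test. Because this contrast was known when the genes were chosen, nothing is read from that count. The same 4 were called with a pseudocount of 0.1 (4.68% of all genes called) or 5 (5.06%), with no filter (3.81%), a minimum mean of 50 (4.1%), upper-quartile scaling (4.81%) and plain empirical Bayes (5.64%). Total scaling called 3 of them without Igf2 (2.5%), a length correction 5 with Igf1r added (7.69%) and library weights 8 (72.9%). Leaving out knockdown replicate 1 called Igf1 alone (0.232%), leaving out replicate 3 called Igf1, Igfbp2 and Igfbp4 (0.778%), and leaving out replicate 2 called 5 higher (23.8%) and 1 lower (26.1%). The fits without 1 control, and that with a replicate block, called 0 genes of any kind. The 9 log2 fold changes, knockdown minus control of log2(value + 1), ran from −2.75 to 4.17. Of the 4 called IGF genes Igf2 stood nearest the threshold, and the uncalled gene with the largest difference was Igf2r. In the authors' deposited table of 323 differential genes (1.59% of all genes), the same 4 genes appear, with folds of 0.152 for Igf1, 5.41 for Igf2, 10.2 for Igfbp4 and 22.98 for Igfbp2.

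In RefSeq GRCm38.p6, Igf1 lies at chr10:87858265-87937047, Igf2 at chr7:142650768-142666816, Igf1r at chr7:67952257-68233668 and Igf2r at chr17:12682406-12769706. Igfbp2 (chr1:72824480-72852474) and Igfbp5 (chr1:72858065-72874865) lie side by side. Igfbp3 is at chr11:7206086-7215498, Igfbp4 at chr11:99040005-99052655, Igfbp6 at chr15:102144186-102149512 and Igfbp7 at chr5:77349240-77408045. The deposited values are sums over each gene.

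**Figure D1:**
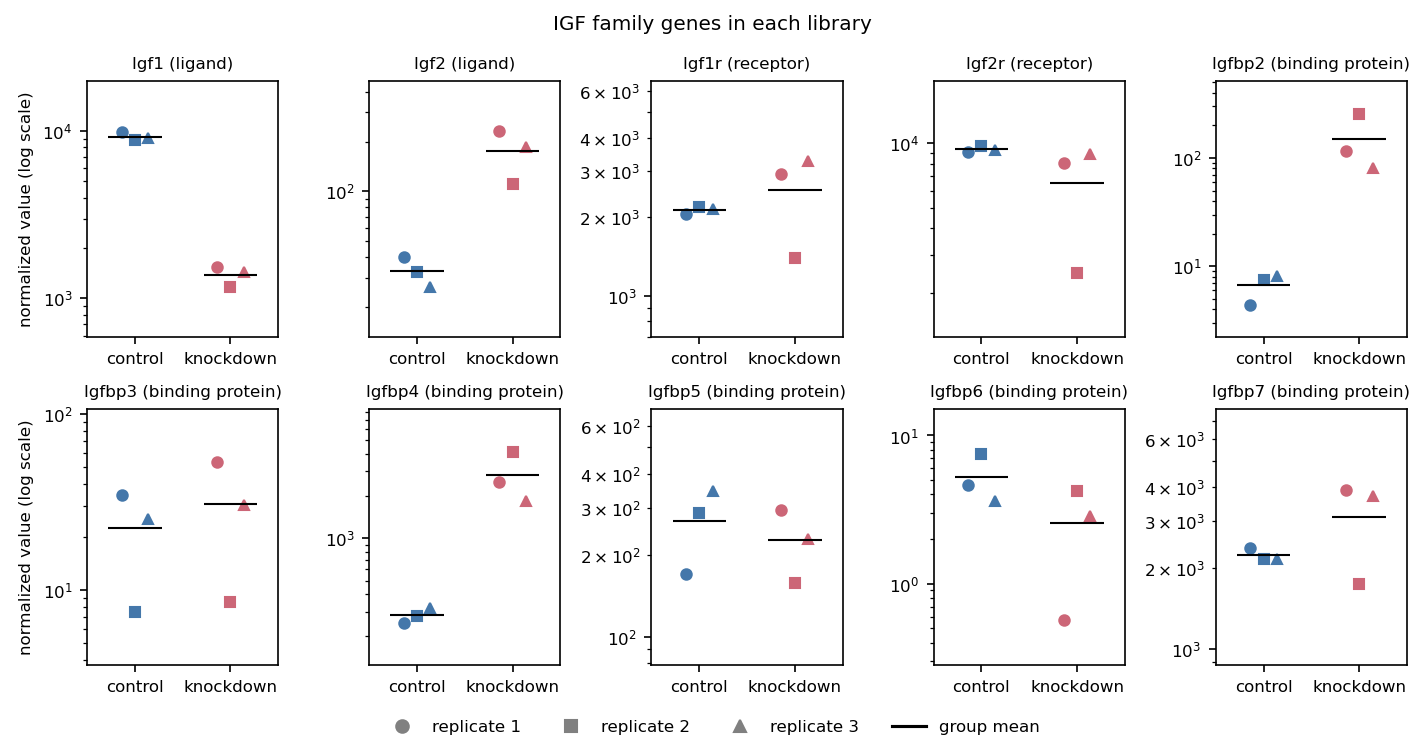
Normalized value on a log axis of each IGF gene in the 3 control and 3 knockdown libraries; marker shape gives the replicate number and the bar the group mean. Igf1 averages 9248 in the controls and 1384.5 in the knockdowns. Igfbp2, Igfbp4 and Igf2 lie higher in all 3 knockdowns than in any control, as do 20.5% of all genes tested. Knockdown replicate 2 is the lowest knockdown value of both receptors and of Igfbp7.

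The 250 bases before a transcription start listed by RefSeq are shown for the 3 genes with the largest differences, because Polycomb complexes are known to act at CpG-rich promoters and these 3 differ in CpG content. Sequences are from RefSeq, build GRCm38.p6, which is newer than the mm9 build of the authors, and are printed 5′ to 3′ on the strand of the gene, with each CpG pair in capitals. Promoter entries were found for all 10 IGF genes, 14 in all, of 32851 in the table. For Igf1, Igfbp3 and Igfbp4 the listed start lies inside the gene span given above, downstream of its outer end, so their windows lie within the annotated gene. The same holds for Igf2 starts 2, 3 and 4 and for Igfbp2 start 2, which is not the start shown.
Igf1 (chr10:87860861-87861110, + strand): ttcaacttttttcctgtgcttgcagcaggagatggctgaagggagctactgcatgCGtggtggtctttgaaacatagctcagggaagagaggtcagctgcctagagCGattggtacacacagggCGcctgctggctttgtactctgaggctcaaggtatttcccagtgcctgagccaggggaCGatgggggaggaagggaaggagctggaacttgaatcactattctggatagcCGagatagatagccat
Igfbp2 (chr1:72824230-72824479, + strand): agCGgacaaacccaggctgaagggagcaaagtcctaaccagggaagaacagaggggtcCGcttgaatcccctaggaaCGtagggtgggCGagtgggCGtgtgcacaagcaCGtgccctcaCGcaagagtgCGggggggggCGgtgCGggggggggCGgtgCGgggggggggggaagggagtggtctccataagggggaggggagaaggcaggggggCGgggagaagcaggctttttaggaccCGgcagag
Igfbp4 (chr11:99040994-99041243, + strand): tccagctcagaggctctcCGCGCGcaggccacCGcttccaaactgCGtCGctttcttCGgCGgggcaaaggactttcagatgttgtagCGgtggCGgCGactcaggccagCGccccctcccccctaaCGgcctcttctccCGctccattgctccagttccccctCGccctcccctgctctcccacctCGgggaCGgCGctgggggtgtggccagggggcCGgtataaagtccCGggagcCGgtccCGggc

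The promoter of Igf1, the gene that fell, holds 5 CpG pairs, more than 44.4% of all promoters. Those of the binding protein genes that rose hold more: 14 for Igfbp2 at the start shown and 11 at its other listed start, and 22 for Igfbp4. Igf2 has 4 listed starts, with 1, 10, 22 and 6 CpG pairs; the deposited values are per gene and do not tell which start was used. High CpG content was also found in genes not called in the fit to all 6 libraries. Igf1r had 42 pairs, more than 99.1% of all promoters, Igfbp3 32, Igf2r 27 and Igfbp7 26. None of these 4 passed the threshold in that fit. Without knockdown replicate 2, Igf1r and Igfbp7 were called, in a fit that called 49.9% of all genes. The median was 6 pairs over all promoters and 16 over those of tested genes; it was 14 for genes called higher and 9 for genes called lower. Short motifs were searched on both strands. The TATA box TATAAA, present in 12.4% of all promoters and 6.44% of those of tested genes, matched once in Igfbp4 and once in Igfbp6. The GC box GGGCGG, which contains a CpG and is present in 32.7% of all promoters and 58.1% of those of tested genes, matched 3 times in Igfbp2 (start shown) and Igf2r, 4 times in Igfbp7 and 2 times in Igf1r and at the fourth Igf2 start, once at the third Igf2 start, and not in the other windows, Igf1 and Igfbp4 included. A match is a description of the letters and not a bound site.

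**Figure D2:**
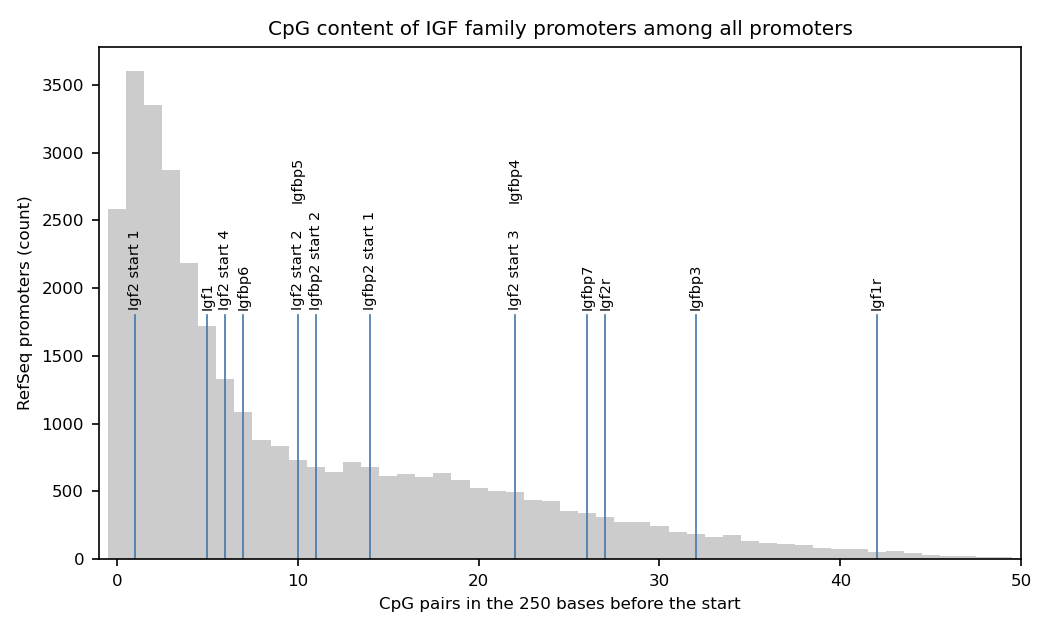
Number of CpG pairs in the 250 bases before each listed transcription start. The starts of Igf1, Igfbp3 and Igfbp4, Igf2 starts 2, 3 and 4 and Igfbp2 start 2 lie inside the gene span. Gray bars count all 32851 RefSeq promoters and blue lines mark the IGF genes. Igf1 lies at 5 pairs, Igfbp4 at 22 and Igf1r at 42. Genes called and not called in the fit to all 6 libraries are interleaved.

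Among the ligands, Igf1 was the abundant one in control cells. Control replicates 1, 2 and 3 read 9891, 8792 and 9062, whereas knockdown replicates read 1545, 1173 and 1435. All knockdowns lay below all controls, which held for 23.7% of all genes tested. The groups lay far apart and each was tight, and knockdown replicate 2 was close to the other knockdowns. The mean fell from 9248 ± 573 to 1384.5 ± 191 (SD, n = 3 each), 6.68-fold, with a log2 fold change of −2.75 (SE 0.17). Without knockdown replicate 2 the log2 fold change was −2.63 (SE 0.06). In bulk RNA, fewer cells making a transcript and less of it per cell cannot be told apart.

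Igf2, scarce in control cells, went the other way. It had control values of 39.9, 32.6 and 26.2 against knockdown values of 231, 110.5 and 186, with knockdown replicate 2 the lowest knockdown. Every knockdown was above every control, which held for 20.5% of all genes tested. The mean rose 5.35-fold, from 32.9 ± 6.85 to 176 ± 60.8 (SD, n = 3 each), a difference of 2.34 log2 units (SE 0.33). About 13 reads in control replicate 2 and 26 in knockdown replicate 2 lay behind these values, against 154 in control replicate 1 and 408 in knockdown replicate 1. When every library was scaled to the same total, Igf2 was no longer among the calls (log2 fold change 2.20, SE 0.47). Because no source used here gives the strand setting of the counting, reads of Igf2 and of its antisense transcript cannot be told apart.

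Igf1 remained the leading ligand in spite of these opposite changes. Per length of transcript (median length of its protein-coding transcripts in GENCODE M21), Igf1 made 99.8% ± 0.032 of the summed level of both ligands in the controls and 93.6% ± 1.34 in the knockdowns (SD, n = 3). The Igf2 share went from 0.193% ± 0.032 to 6.35% ± 1.34. The summed ligand level per kilobase was 7249, 6442 and 6637 in the controls and 1222, 902 and 1124 in the knockdowns, so the gain of Igf2 was small beside the loss of Igf1. With the longest transcript of each gene as the length, the Igf1 share in the knockdowns was 84.4%.

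The receptor genes differed less, and what difference there was depended on knockdown replicate 2. Igf1r, the signalling receptor, had control values of 2057, 2178 and 2144 against knockdown values of 2919, 1393 and 3273. Knockdown replicates 1 and 3 lay above all controls and replicate 2 below them, so the groups overlapped (log2 fold change 0.16, SE 0.34, not called). Without that library the log2 fold change was 0.54 (SE 0.06) and Igf1r was called, in a fit that called 49.9% of 11995 genes.

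Igf2r, the clearance receptor, had control values of 9159, 9737 and 9339 against knockdown values of 8095, 2479 and 8956. All 3 knockdowns lay below all 3 controls, which held for 23.7% of all genes tested, but knockdown replicates 1 and 3 lay close to the controls (log2 fold change −0.74, SE 0.51, not called). Without knockdown replicate 2 it was −0.14 (SE 0.06), still not called. Transcripts of both receptors are long, 11409 nt for Igf1r and 8887 nt for Igf2r, and long transcripts read low in knockdown replicate 2: it was 1.15 log2 units below the mean of the other knockdowns for Igf1r (difference −1.15) and further below for Igf2r (−1.78); the part of length in this was not tested. With a correction of every library for transcript length, Igf1r was called (log2 fold change 0.68, SE 0.11) and Igf2r was not (−0.28, SE 0.21). Reads of Igf2r and of Airn, the noncoding RNA on its opposite strand, cannot be told apart without a stated strand setting. Per kilobase, Igf2r was the more abundant receptor in every library, at 84.8 to 85.2% of the receptor sum in the controls and 69.5 to 78.1% in the knockdowns.

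The binding protein with the largest difference was Igfbp2, which binds both ligands and also attaches to integrins at the cell surface. It had control values of 4.40, 7.52 and 8.13 against knockdown values of 117, 255 and 80.3. Control cells hardly expressed it; about 17, 3 and 9 reads lay behind the control values and 207, 60 and 113 behind the knockdowns, so the control level and the fold are imprecise. All knockdowns were above all controls (as for 20.5% of all genes tested), replicate 2 most. The mean rose 22.6-fold, from 6.68 ± 2.00 to 151 ± 92.2 (SD, n = 3 each), a difference of 4.17 log2 units (SE 0.49). Without knockdown replicate 2 the fold was 14.8, which is over 1.5 times smaller, and the log2 fold change 3.71 (SE 0.32).

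Igfbp4, mostly an inhibitor of IGF action in culture, reached a far higher level. It had control values of 251, 281 and 318 against knockdown values of 2511, 4156 and 1854, replicate 2 the highest. The groups were well apart, and all knockdowns lay above all controls, as for 20.5% of all genes tested. The mean rose 10.0-fold, from 283 ± 33.7 to 2840 ± 1186 (SD, n = 3 each), a difference of 3.25 log2 units (SE 0.32). Without knockdown replicate 2 the fold was 7.71 and the log2 fold change 2.93 (SE 0.14). The median transcripts of Igfbp4 and Igfbp2 are short, 742 and 1149 nt. Knockdown replicate 2 read them 0.95 and 1.39 log2 units above the mean of the other knockdowns. With the length correction their log2 fold changes were 2.98 (SE 0.16) and 3.90 (SE 0.34), and the part of length was not tested.

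Igfbp7, the weak binder also found in matrix and blood vessels, was the most abundant binding protein of control cells per kilobase. It had control values of 2366, 2157 and 2163 against knockdown values of 3879, 1752 and 3687. As for Igf1r, knockdown replicates 1 and 3 were above every control and replicate 2 was below (log2 fold change 0.39, SE 0.33, not called); without replicate 2 the log2 fold change was 0.76 (SE 0.06) and it was called. The median transcript of Igfbp7 is short, 1158 nt, so its low value in knockdown replicate 2 (−1.11 log2 units against the other knockdowns) went against the trend with length in that library.

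The other binding protein genes showed no difference beyond the spread between replicates. Igfbp5, which binds to matrix and bone mineral, had control values of 170, 286 and 346 against knockdown values of 295, 157 and 229.5 (log2 fold change −0.22, SE 0.36). Igfbp3, the main carrier in serum, had control values of 34.4, 7.52 and 25.3 against knockdown values of 53.1, 8.50 and 30.6 (log2 fold change 0.34, SE 0.83). Its values in control replicate 2 and knockdown replicate 2 rest on about 3 and 2 reads. Its log2 fold change was 1.05 (SE 0.62) without knockdown replicate 2, −0.20 (SE 0.86) without knockdown replicate 1 and −0.27 (SE 0.81) without control replicate 2, and so had no stable sign. For Igfbp5 it was 0.02 (SE 0.35) without knockdown replicate 2. Igfbp6, which prefers IGF2, had control values of 4.66, 7.52 and 3.61 against knockdown values of 0.565, 4.25 and 2.84, from 18 reads at most and 1 read in knockdown replicates 1 and 2, so no fold is given. A floor of 3 reads is 7.52 in control replicate 2 and 12.8 in knockdown replicate 2, and differences at that level were not detectable in them. Read numbers and floors cover counting error only.

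**Figure D3:**
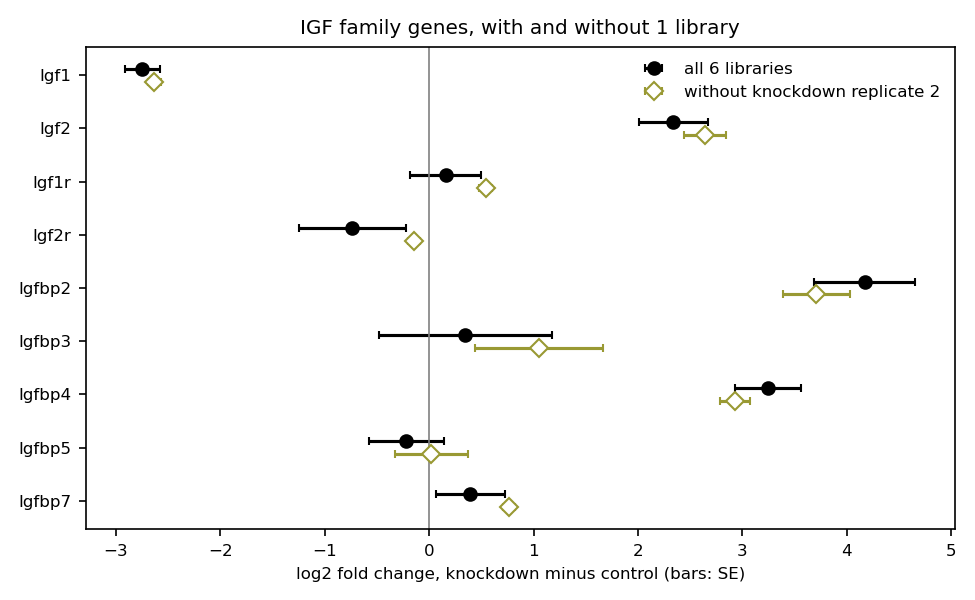
Log2 fold change (knockdown minus control, log2(value + 1) scale) of the 9 tested IGF genes, bars giving the SE; filled circles use all 6 libraries and open diamonds leave out knockdown replicate 2. Igf1 lies at −2.75 and −2.63, Igfbp4 at 3.25 and 2.93, while Igf2r moves from −0.74 to −0.14 and Igf1r from 0.16 to 0.54.

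The make-up of the binding protein transcripts therefore shifted towards Igfbp4. Igfbp7 lost share, although its mean value was 2229 in the controls and 3106 in the knockdowns, with overlapping groups. Per kilobase of median transcript length, Igfbp7 made 83.9, 80.8 and 78.6% of the sum of the 6 genes in the controls and 48.5, 20.5 and 54.8% in the knockdowns. Igfbp4 made 13.9, 16.4 and 18.03% in the controls and 49.0, 76.0 and 43.0% in the knockdowns, and the groups did not overlap. The size of its share depends on the length used, because its 3 annotated protein-coding transcripts have a median length of 742 nt and the longest has 3831 nt. With the longest transcripts, Igfbp4 made 3.72% ± 0.55 of the sum in the controls and 22.8% ± 14.2 in the knockdowns (SD, n = 3), and Igfbp7 led in every library. Igfbp2 stayed a minor part, from 0.246% ± 0.077 to 1.90% ± 0.98 with median lengths. Summed over the 6 genes, the level per kilobase was 2434, 2306 and 2377 in the controls and 6911, 7370 and 5808 in the knockdowns.

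**Figure D4:**
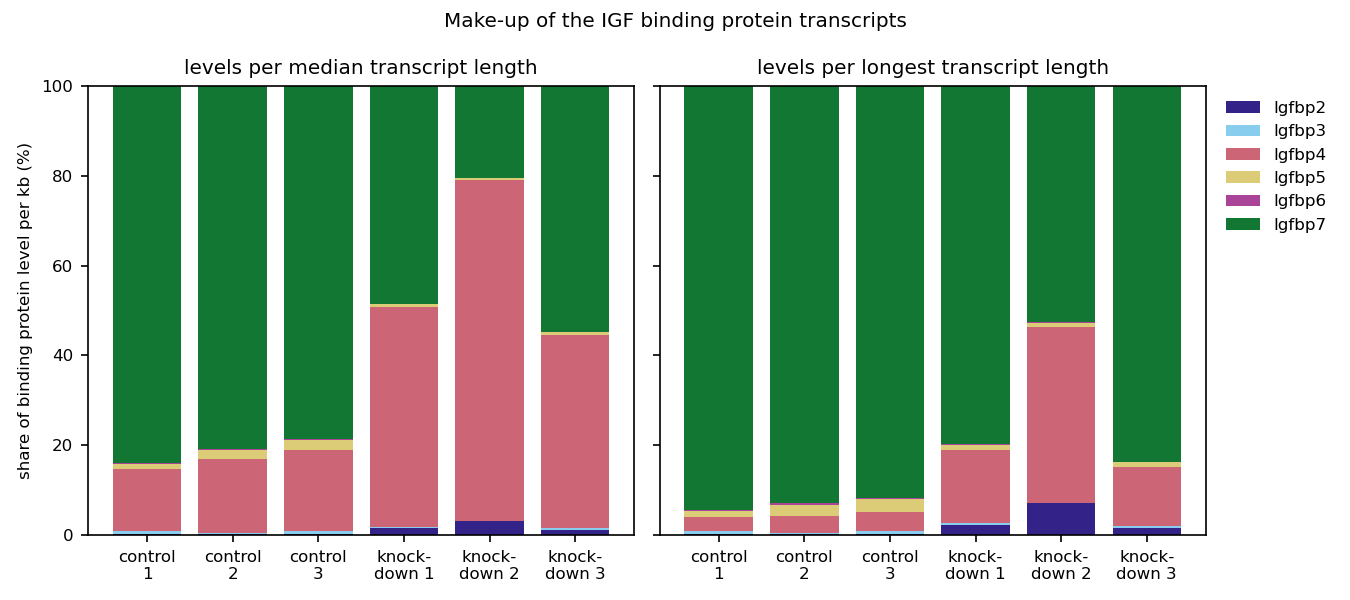
Share of each binding protein gene in the summed level per kilobase (%), for each of the 6 libraries, with median transcript lengths on the left and longest transcript lengths on the right. Igfbp4 takes 13.9 to 18.03% in the controls and 43.0 to 76.0% in the knockdowns on the left, and at most 39.1% on the right, while Igfbp7 takes most of the rest.

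Set against each other, the binding protein sum was 0.336, 0.358 and 0.358 times the ligand sum in the controls and 5.66, 8.17 and 5.17 times in the knockdowns, per kilobase of median length. With the longest transcripts these ratios averaged 1.51 ± 0.032 and 14.9 ± 0.29 (SD, n = 3). Under either length the ratio was higher in every knockdown than in every control. These are ratios of RNA levels and not of proteins.

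In order of level per kilobase in the controls, the genes ran from Igf1 (6763) through Igfbp7 (1925), Igf2r (1059), Igfbp4 (382), Igf1r (186) and Igfbp5 (44.5) to Igf2 (13.1), Igfbp3 (10.9) and Igfbp2 (5.82). Igf1 lay above 98.3% of 10893 genes with a length and Igfbp2 above 3.96%. Igfbp3, from 3.64 to 16.7 between libraries, overlapped both Igf2 and Igfbp2. In the knockdowns Igfbp4 led (3828, above 96.3% of genes), followed by Igfbp7 (2682), Igf1 (1012), Igf2r (732.5), Igf1r (222), Igfbp2 (131), Igf2 (70.2), Igfbp5 (37.8) and Igfbp3 (14.9). Of these neighbours, Igfbp4 and Igfbp7, Igf1 and Igf2r, Igf2r and Igf1r, Igf1r and Igfbp2, Igfbp2 and Igf2, and Igf2 and Igfbp5 overlapped between libraries. The order at the top depends on length. With the longest transcripts Igfbp7 led in the controls (1857, against 1311 for Igf1) and in the knockdowns (2588, against 741 for Igfbp4).

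The spread between replicates was itself uneven. In the controls the highest value was 1.06 times the lowest for Igf1r and Igf2r, 1.10 for Igfbp7 and 1.12 for Igf1, but 2.03 for Igfbp5 and 4.58 for Igfbp3. In the knockdowns it was 1.32 for Igf1, 2.09 for Igf2 and 3.61 for Igf2r. Igf1 therefore had the smallest spread of the 10 genes in the knockdowns, and knockdown replicate 2 held the lowest value of 7 of them.

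Genes with the most similar profile over the 6 libraries, by Euclidean distance of log2(value + 1) centred on the control mean, were Frzb (0.33) and Gas7 (0.34) for Igf1. Frzb, which encodes a secreted Wnt antagonist of cartilage, went from 1478 ± 57.8 to 224 ± 41.8 (SD, n = 3). For Igf2r they were Arhgef12 (0.071) and Crim1 (0.091). For Igfbp7 they were Fgf7 (0.13) and Rybp (0.14), and for Igfbp2 the glutamate transporter gene Slc1a6 (0.64) and Myct1 (1.07). Igf2 was nearest to Podxl (0.51) and Adra1b (0.52), Igfbp4 to Bdkrb1 (0.52) and Bcam (0.73), Igfbp5 to Slc16a6 (0.49) and Gprc5c (0.49), and Igfbp3 to Jazf1 (0.98) and Mreg (1.015). These distances describe 6 libraries.

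The neighbours of the IGF genes on their chromosomes were examined after values had been seen. Igfbp2 and Igfbp5 are adjacent on chromosome 1; Igfbp2 rose and Igfbp5 overlapped between groups. Of the 18 other nearest protein-coding genes in RefSeq order, 8 had a mean under 10. Limma called 0 of the 10 tested, beside 4.98% of all genes. An unadjusted p under 0.05 was found for 4 of the 10, beside 2473 of all 12085 genes tested. The nearest to the threshold were Top2a, the mitotic topoisomerase gene beside Igfbp4 (1559 ± 147 to 3747 ± 1158, SD, n = 3; difference of 1.21 log2 units with SE 0.28, limma adjusted p = 0.0757), and Adgrl3 beside Igfbp7 (1210 ± 74.5 to 393 ± 188; log2 fold change −1.76, SE 0.41, limma adjusted p = 0.0823). In the fit that omits knockdown replicate 2, 6 of them were called, beside 49.9% of all genes.

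The gene lists below were chosen with earlier results of these data known, so their counts, medians and p-values are descriptions. Among relatives of the binding proteins and partners of the axis, 1 gene rose and 1 fell of 9 tested (of 15 listed). Over all genes, 3.2% were called higher and 1.78% lower. The list had a median log2 fold change of 0.45 against 0.01 over all genes. Wisp2, which encodes a secreted matricellular protein with a domain like that of the binding proteins, rose from 817 ± 8.31 to 4309 ± 2715 (SD, n = 3; difference of 2.22 log2 units with SE 0.42, limma adjusted p = 0.0446). Its values in knockdown replicates 1, 2 and 3 were 2889, 7440 and 2597, and with a minimum mean of 50 it missed the threshold (limma adjusted p = 0.0509; range over alternatives 2.41e-10 to 0.200). Igfals, encoding the acid-labile subunit that joins IGF and Igfbp3 or Igfbp5 in serum, fell from 20.04 ± 5.67 to 4.01 ± 1.77 (SD, n = 3; difference of −2.10 log2 units with SE 0.41, limma adjusted p = 0.0483); over 14 alternatives its limma adjusted p ran from 1.59e-05 to 0.212. In knockdown replicate 2 the Igfals value, 4.25, was the value of 1 read, where a floor of 3 reads is 12.8. In knockdown replicate 3 its value, 2.13, was at the floor of 3 reads, so its fold is imprecise. The most abundant relatives, Nov and Cyr61, averaged 14163 ± 259 and 3027 ± 1243 among controls, against 25063 ± 9985 and 5069 ± 2185 after knockdown (limma adjusted p = 0.284 and 0.384). Igfbp1 and Ins1 were listed at 0 in all 6 libraries. In the fit that leaves out knockdown replicate 2, 2 rose and 1 fell, beside 49.9% of all genes called in either direction.

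The binding protein proteases and their regulators had a median log2 fold change of 0.86, against 0.01 over all genes. Of 13 tested, 2 rose and 0 fell, beside 3.2% and 1.78% of all genes. Both encode secreted serine proteases that carry a domain like that of the binding proteins. Htra1 rose from 195 ± 20.2 to 873 ± 333 (SD, n = 3; difference of 2.10 log2 units with SE 0.29, limma adjusted p = 0.0205). Htra3 rose from 32.04 ± 9.26 to 105 ± 16.1 (difference of 1.70 log2 units with SE 0.27, limma adjusted p = 0.0275). The most abundant uncalled genes of this list were Ctsd and Mmp2 (limma adjusted p = 0.648 and 0.200). Ctsd stood at 15740 ± 469 and 24827 ± 19551, high in knockdown replicate 2 alone, and Mmp2 at 12187 ± 986 and 8903 ± 291. Pappa, which encodes the protease that cuts Igfbp4, and its paralog Pappa2, both named after their values were seen, averaged 105 ± 26.2 and 43.7 ± 6.93 among controls, against 178 ± 62.0 and 134 ± 62.9 after knockdown (limma adjusted p = 0.325 and 0.133). For 7 of the 13 the knockdown range lay above that of the controls, beside 20.5% of all genes. Leaving out knockdown replicate 2, 10 rose and 3 fell, in a fit that called 23.8% of all genes higher and 26.1% lower.

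Receptor signalling genes, from the docking proteins through PI3-kinase and Akt to mTOR, FoxO and MAP kinase, mostly missed the threshold. Of 44 tested, 1 rose and 2 fell, beside 3.2% and 1.78% of all genes, with a median of −0.20. Grb14, an adaptor that restrains the insulin receptor, rose from 68.6 ± 15.7 to 207 ± 16.8 (SD, n = 3; difference of 1.60 log2 units with SE 0.22, limma adjusted p = 0.0194). Pik3r3, a regulatory subunit of PI3-kinase, fell from 2902 ± 231 to 1469 ± 228 (difference of −0.99 log2 units with SE 0.17, limma adjusted p = 0.0345). Socs2, which restrains growth hormone signalling, fell from 889 ± 42.2 to 473 ± 67.8 (difference of −0.92 log2 units with SE 0.17, limma adjusted p = 0.0385). Pik3r3 and Socs2 missed the threshold under total scaling (limma adjusted p = 0.156 and 0.168; ranges over alternatives 8.89e-08 to 0.192 and 3.02e-08 to 0.203), and Socs2 also after length correction (limma adjusted p = 0.0992). Leaving out knockdown replicate 2, the median was −0.02, and 10 rose and 12 fell, beside 49.9% of all genes called.

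Genes that FoxO factors induce when IGF signalling is low had a median of −0.61. Limma called 0 of the 17 tested, beside 4.98% of all genes. An unadjusted p under 0.05 was found for 6 of the 17, beside 2473 of all 12085 genes tested. In 8 of them all knockdowns lay below all controls, beside 23.7% of all genes, and in 0 above. The most abundant, Cat (catalase), stood at 2990 ± 71.3 among controls, against 1860, 855 and 1709 after knockdown, and Txnip, which encodes a thioredoxin inhibitor, at 2004 ± 54.8 and at 930, 293 and 944 (limma adjusted p = 0.129 and 0.128). Leaving out knockdown replicate 2, the median was −0.29, and 2 rose and 8 fell, beside 23.8% and 26.1% of all genes.

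The genes for proteins that bind Igf2 mRNA and the Igf2 locus neighbours had a median of 0.75. Of 4 tested, 1 rose and 0 fell, beside 3.2% and 1.78% of all genes. Leaving out knockdown replicate 2, the median was 0.30 and 2 rose, beside 23.8% of all genes. Mrpl23, next to Igf2 and named after its values were seen, was high in that library alone, at 255, 2015 and 228 in the knockdowns and 231, 263 and 232 in the controls. Igf2bp3, which encodes a fetal RNA-binding protein, rose from 16.0 ± 1.64 to 185 ± 43.0 (SD, n = 3), 11.5-fold (difference of 3.43 log2 units with SE 0.25, limma adjusted p = 0.00572). Its relatives Igf2bp2 and Igf2bp1 averaged 1075 ± 40.8 and 526 ± 24.2 among controls, against 1043 ± 35.4 and 745 ± 110 after knockdown (limma adjusted p = 0.839 and 0.177). Ins2 and Th, which lie near Igf2, were listed at 0 in every control. Each of the 8 genes called in these lists missed the threshold in every fit without a control replicate in which it was tested, where limma called 0 genes of the whole table.

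**Figure D5:**
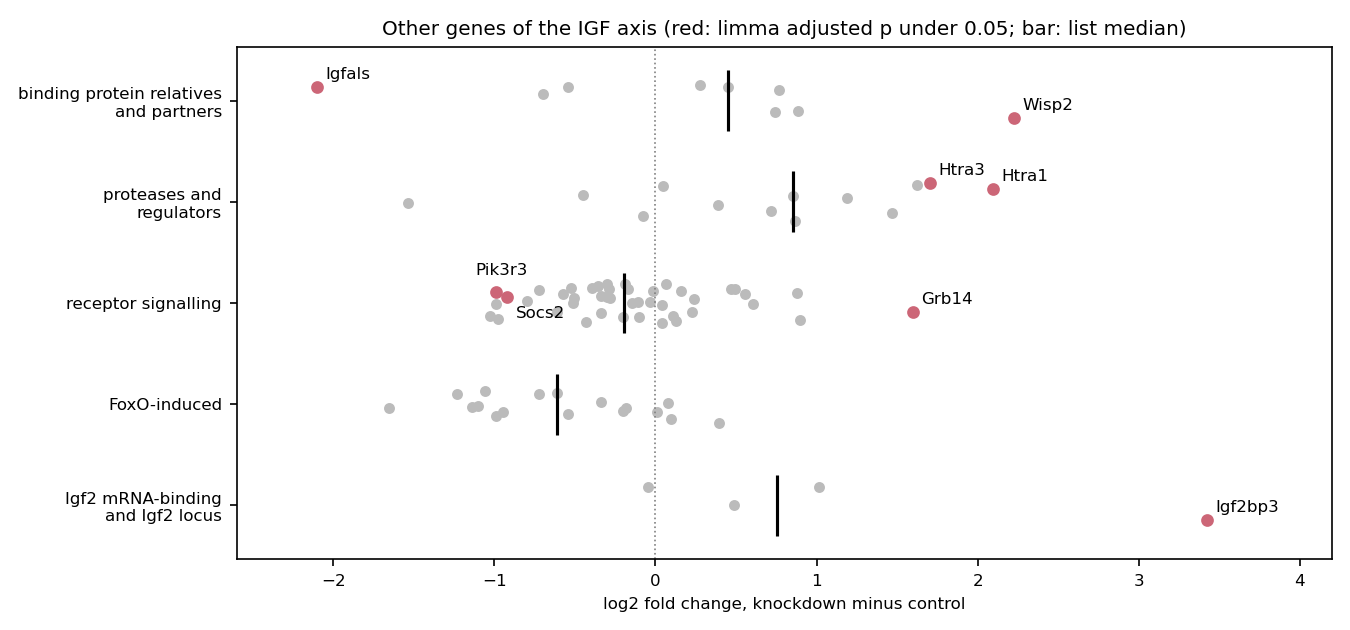
Log2 fold change (knockdown minus control) of the tested genes of 5 lists of the IGF axis; red points passed limma at an adjusted p under 0.05, gray points did not, black bars are list medians, and vertical scatter within a list has no meaning. Wisp2, Htra1, Htra3, Grb14 and Igf2bp3 lie to the right, and Igfals, Pik3r3 and Socs2 to the left.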

How the data were processed

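The submitters' processing notes name RSEM 1.2.12, the aligner Bowtie 1.0.0 and the build mm9; the sources used here give no annotation, strand setting or test for the differential list. The authors deposited a normalized signal per gene and library, an estimated count divided by a size factor (median normalization), for 20325 genes, and a second table with a fold for 323 genes; that deposited ratio is the authors' own. The value of 1 read per library was taken as the most frequent lowest value; among values of at most 20 reads, 88.3 to 90.5% lay within 0.1 read of a whole number, so no count test was run. Genes with a mean of at least 10 were fitted by limma 3.58.1 (R 4.3.3) after a log2(value + 1) transform, as knockdown minus control, with robust, trended empirical Bayes and a two-sided Benjamini-Hochberg threshold of 0.05; the script was tested on simulated data. Exact permutation of 3 against 3 cannot go below 0.1. All pairs of libraries of a group differed by more than counting noise (chi-square over its degrees of freedom at least 1.51), and each was counted as a sample. That ratio cannot tell separate cultures from technical libraries. The members and the gene lists were chosen with earlier results of these data known, so the p-values of list genes are descriptions. Named genes are the 10 members, Ring1 and Rnf2, the called genes and the 2 most abundant uncalled genes of the 3 short lists, up to 6 called genes of the signalling and FoxO lists (or the 2 most abundant), and the 2 genes nearest each member in profile, skipping predicted names. The profile comparison for Igf1r is not reported here. The look at neighbouring genes and at promoters was added after seeing the data. Transcript lengths are from GENCODE M21 and promoters from RefSeq GRCm38.p6. Of the listed genes, Hras was read under the symbol Hras1; H19 and Igf2as were not analysed here. Alternatives were another pseudocount, filter, scaling, variance model, library weights, length correction, replicate block and each library left out. All 6 sample columns were used.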

Additional observations from a re-analysis of the deposited data

How the results depend on the processing

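Of the 9 tested IGF genes, none reversed a called direction under any of 16 alternatives, and 139 recomputed log2 fold changes moved by less than the replicate spread while 4 moved more (Igf1 and Igf2 with library weights, Igf1 and Igf1r with length correction). The number of calls was less stable; the cause was not tested unless stated. Total scaling gave 302 genes in the whole table (median log2 fold change −0.14 against 0.01), 1 binding protein relative and 1 signalling gene. Length correction gave 929 genes, 7 proteases and 2 FoxO-induced genes. Library weights, whose fit gave a convergence warning, gave 8810 genes, 8 IGF genes, 8 relatives, 13 proteases, 34 signalling, 15 FoxO-induced and 2 Igf2-related genes. Among the relatives 1 call was left with a pseudocount of 0.1, without a filter or with upper-quartile scaling, and 0 with a minimum mean of 50, where Igfals was not tested. A replicate block in the fit left 0 limma calls anywhere (1866 at an unadjusted p under 0.05), so 0 IGF genes and 0 in each list. The labels state no link between same-numbered libraries beyond the number. Correlations of their deviations from the group means were 0.17, −0.051 and −0.051, against −0.172 to 0.113 for differently numbered pairs. With 3 libraries per group, these correlations cannot tell whether same-numbered libraries shared a culture or batch. Leaving out 1 library, which also leaves fewer samples, gave 0 to 5991 genes in the whole table, 0 to 6 IGF genes, 0 to 3 relatives, 0 to 13 proteases, 0 to 22 signalling, 0 to 10 FoxO-induced and 0 to 2 Igf2-related genes. The highest was always without knockdown replicate 2. Without control replicate 1, 2 or 3 limma made 0 calls (unadjusted p under 0.05 in 1495, 1529 and 1475 genes). Igf1 alone of the IGF genes was called without knockdown replicate 1, and Igf1, Igfbp2 and Igfbp4 without knockdown replicate 3. The Igf1 share of ligands was 99.5% and 84.4% in controls and knockdowns with the longest transcripts, 99.6% and 88.97% undivided by length, and 99.9% and 95.5% with the basic set of GENCODE, an alternative chosen after seeing the data. The Igfbp4 share was 3.72% and 22.8% with the longest transcripts and 5.87% and 31.4% with the basic set, and 10.1% in the controls undivided by length. Depth limits Igfbp2, Igfbp3 and Igfbp6 most among the IGF genes, and it also limits Igfals.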
